A study of Homo sapiens with 6 samples.

Results

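The CCN family is a group of 6 secreted matricellular proteins, and its genes were followed here in the human fetal lung fibroblast line HFL-1 after siRNA knockdown of TAZ. The genes were chosen by symbol. All 6 of them, CTGF (CCN2), CYR61 (CCN1), NOV (CCN3), WISP1 (CCN4), WISP2 (CCN5) and WISP3 (CCN6), were found among the 23355 gene entries of the count table, and 5 of the 6 were among the 14053 genes that passed the filter on low counts. WISP3 was too low to be tested. The cells received a non-targeting control siRNA (siNTC) or 1 of 2 siRNAs against TAZ (siTAZ #1 or siTAZ #2) through a lipid reagent, and total RNA was taken 48 h later. The study calls the 2 libraries of each group biological replicates, and 6 libraries were sequenced in all. Every group was the same cell line in its standard growth condition, the knockdown was transient, and no untransfected cells were included.

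CCN proteins are released into the extracellular matrix, where they bind integrins, proteoglycans and growth factors and modulate adhesion, migration and matrix production rather than serving as structural fibers. CTGF and CYR61 are the family members most often used as readouts of TAZ and its homolog YAP, coactivators that act through TEAD transcription factors, and both genes also respond to serum, TGF-β and mechanical load. In the lung, CTGF is known as a profibrotic product of activated fibroblasts, whereas NOV has been described as a counterpart that can oppose CTGF in some settings.

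The proximal CTGF promoter is shown because TEAD factors bind the sequence GGAATG, so that a reader can see where this motif lies in the family member best known as a TAZ target. Promoter sequences from RefSeq (GRCh38.p14) matched 2 of the 6 genes, CTGF and WISP3, and the 250 bases before the annotated start of each are printed 5′ to 3′ on the strand of the gene. The capitals mark GGAATG, which was searched on both strands. The CTGF stretch is chr6:131951373-131951622 on the minus strand.
CTGF: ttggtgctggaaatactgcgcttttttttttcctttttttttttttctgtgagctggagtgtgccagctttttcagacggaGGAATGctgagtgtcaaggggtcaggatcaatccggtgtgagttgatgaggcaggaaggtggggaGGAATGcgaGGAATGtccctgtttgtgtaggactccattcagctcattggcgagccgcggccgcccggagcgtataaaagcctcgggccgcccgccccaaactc
The WISP3 stretch is chr6:112053854-112054103 on the plus strand.
WISP3: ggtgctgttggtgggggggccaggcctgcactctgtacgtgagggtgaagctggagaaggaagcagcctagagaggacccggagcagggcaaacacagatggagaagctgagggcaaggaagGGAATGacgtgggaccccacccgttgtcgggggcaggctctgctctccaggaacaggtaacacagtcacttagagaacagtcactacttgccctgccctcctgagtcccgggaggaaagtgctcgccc
The CTGF stretch held 3 copies of GGAATG, all on the strand of the gene, with first bases at −169, −104 and −95 from the start. Of the 35116 promoters of the same length, 11.9% held at least 1 copy and 0.0826% held at least 3. WISP3 held 1 copy. The SMAD motif CAGAC, present in 38.0% of promoters, occurred once in the CTGF stretch beside the first TEAD motif, and TATAAA, present in 10.7%, began at −32. TGACTCA, the AP-1 motif, was in neither stretch and was found in 4.2% of promoters. A match of letters describes the sequence and does not show that a factor binds there. CYR61, NOV, WISP1 and WISP2 had no entry in the promoter table.

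On GRCh37, the build of the counts, CTGF lies on chromosome 6 from 132269316 to 132272512 (minus strand) and CYR61 on chromosome 1 from 86046444 to 86050272 (plus strand). NOV, from 120428686 to 120436674, and WISP1, from 134203282 to 134243933, lie on the plus strand of chromosome 8. WISP2 lies on chromosome 20 from 43343485 to 43357150, and WISP3 on chromosome 6 from 112375278 to 112390889, both on the plus strand. CTGF overlaps the long noncoding RNA gene LINC01013 on the opposite strand, NOV overlaps 2 unnamed long noncoding genes and WISP2 overlaps KCNK15-AS1. The strand setting of the counting is not given in the sources used here, so reads of these opposite-strand genes cannot be told apart from those of the members.

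The libraries held 15648055 to 32078188 counts on gene entries. TAZ is encoded by WWTR1, whose TMM-scaled CPM was 131.5 ± 1.01 in siNTC libraries (SD, n = 2). It was 27.4 ± 1.42 CPM in those of siTAZ #1 and 44.6 ± 2.14 CPM in those of siTAZ #2. Replicate 2 of siTAZ #1 held only 0.241% of its counts between RANGAP1 on chromosome 22 and the end of Y, against 3.31% to 3.48% in the other 5 libraries. No CCN gene lies in that region. The common dispersion, an estimate of the spread over all genes tested, was 0.0807 with its 561 tested genes and 0.0187 without them. All 10 fibroblast markers examined were detected, and their summed level was 34957 to 35038 CPM with siNTC, 23304 to 24153 CPM with siTAZ #1 and 27284 to 29036 CPM with siTAZ #2. COL1A1, COL1A2, COL3A1 and VIM carry most of that sum, and single markers went both ways. With siTAZ #1, COL1A1, COL1A2, DCN and LUM were lower, whereas PDGFRB (FDR 0.0201), FAP (FDR 0.0234) and PDGFRA were higher, the last at 1370 and 1424 CPM against 447 and 401 CPM with siNTC (FDR 0.000843). With siTAZ #2, COL1A2, COL3A1, VIM, DCN and LUM were lower, whereas PDGFRB (FDR 0.00513) and THY1 (FDR 0.0105) were higher. COL1A1 (FDR 0.175), PDGFRA (FDR 0.114) and FAP (FDR 0.0644) did not pass with siTAZ #2. Among markers of other cells, 5 of 7 epithelial, 4 of 6 endothelial and 5 of 6 blood markers stayed below 1 CPM in every library, and no marker was at 0 in all libraries. The endothelial sum was nearly all TEK, which had 24.0 and 27.8 CPM with siTAZ #2 against 41.2 and 41.0 CPM with siNTC (FDR 0.0127). The blood sum was nearly all CD68, with 37.8 and 48.3 CPM under siTAZ #2 against 73.8 and 75.1 CPM (FDR 0.0118), while PTPRC, CD14, CD3E, CD79A and LYZ stayed below 1 CPM. Markers of smooth muscle and pericytes summed to 190 to 199 CPM with siNTC. They summed to 231 to 256 CPM with siTAZ #1 and 286 to 317 CPM with siTAZ #2. Nearly all of this sum was MCAM, with 263 and 299 CPM under siTAZ #2 against 186 and 175 CPM with siNTC (FDR 0.00878). DES was also higher with siTAZ #2 (FDR 0.0392). RGS5 was lower with siTAZ #2, at 2.38 and 1.45 CPM against 3.49 and 2.78 CPM (FDR 0.171), and MYH11 was higher (FDR 0.113), but neither passed. Mesothelial markers summed to 6.88 to 9.51, 6.65 to 8.86 and 13.7 to 14.7 CPM in the same groups, mostly CALB2, which was higher with siTAZ #2 (FDR 0.0319). Among these markers UPK3B was lower with siTAZ #2, at 2.10 and 1.69 CPM against 2.92 and 2.65 CPM, but did not pass (FDR 0.248). The part of these marker differences in the CCN results was not tested. In bulk RNA, fewer cells of a kind and less RNA per cell cannot be told apart.

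With siTAZ #1, CTGF, CYR61 and WISP1 fell and NOV rose. With siTAZ #2, CTGF and NOV fell, while CYR61, WISP1 and WISP2 did not pass the test. In this test CTGF was therefore the only member that changed in the same direction with both siRNAs, and NOV changed with both in opposite directions. In counts at an FDR under 0.05 from the edgeR quasi-likelihood test, 4 of the 5 tested members were called with siTAZ #1, against 20.6% of all genes tested. With siTAZ #2, 2 of the 5 were called, against 28.5% of all genes, and between the siRNAs 4 of the 5 were called, against 28.6%. Both siRNAs were compared with the same siNTC libraries, so their values against siNTC are not independent of each other.

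**Figure D1:**
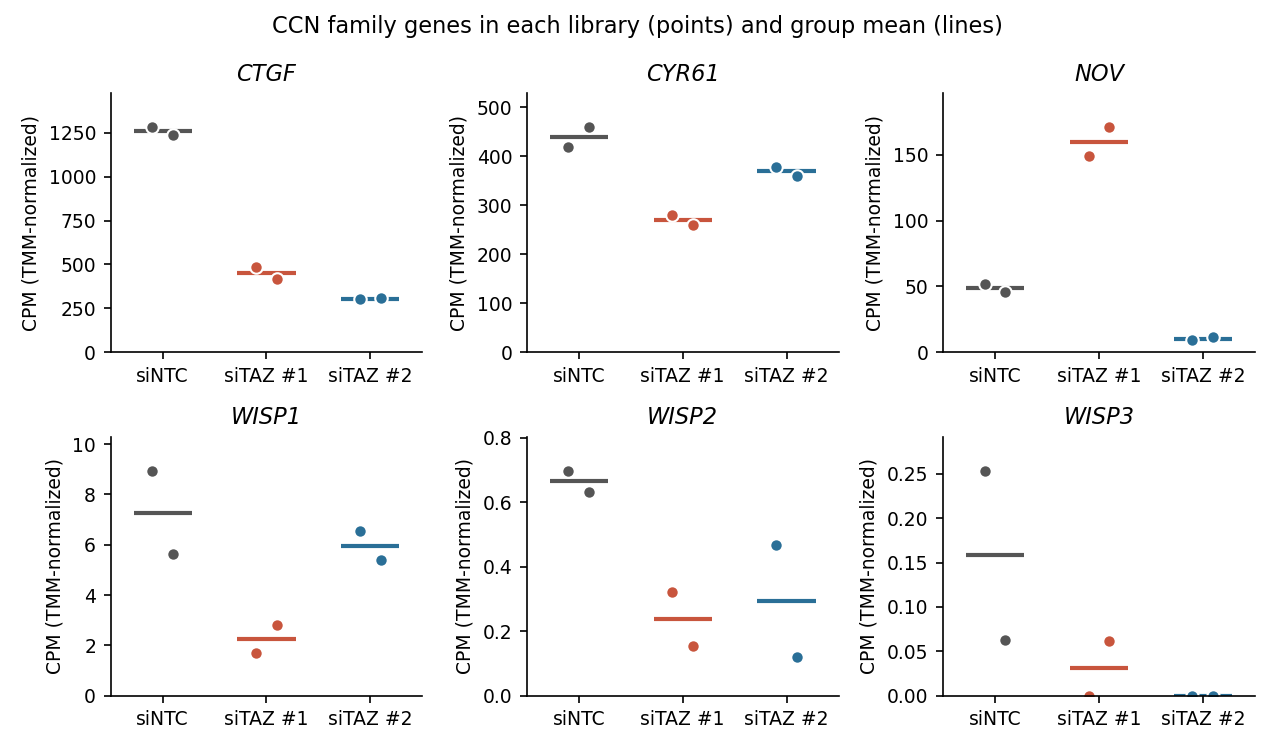
Level of each CCN gene in TMM-normalized CPM (linear axes starting at 0) for siNTC, siTAZ #1 and siTAZ #2, with a point for each of the 2 libraries of a group and a line at the group mean. CTGF lies at 1235 to 1282 CPM with siNTC and at 301 to 487 CPM in the 4 TAZ siRNA libraries, whereas NOV is highest with siTAZ #1 and lowest with siTAZ #2.

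CTGF, a profibrotic member, had 1282 and 1235 CPM in the siNTC libraries. With siTAZ #1 it had 487 and 415 CPM, and the siTAZ #2 libraries had 301 and 310 CPM. The 3 groups did not overlap, and the order was siNTC, siTAZ #1, siTAZ #2. These levels rest on 5126 to 20215 counts per library. The level fell 2.79-fold with siTAZ #1 (log2 fold change −1.48, SE 0.10, FDR 0.00102) and 4.12-fold with siTAZ #2 (−2.04, SE 0.10, FDR 0.000503). Lower levels with both siRNAs, each at FDR under 0.05, were found for 525 of the 14053 genes (3.74%), and CTGF was the 1 CCN gene among them. The study had listed CTGF as lower with both siRNAs from these same samples, so this is not independent evidence. The study also reported lower CTGF by qRT-PCR in HFL-1 cells and another lung fibroblast line. It described a modest fall of the protein in HFL-1 cells after TAZ knockdown. CTGF was 1.48-fold higher with siTAZ #1 than with siTAZ #2 (log2 0.56, SE 0.10, FDR 0.0102). WWTR1 had the opposite order, being 1.63-fold lower with siTAZ #1 than with siTAZ #2 (log2 −0.70, SE 0.10, FDR 0.00499). Leaving out either siTAZ #2 library ended the call of CTGF between the siRNAs (FDR 0.0663 without replicate 1 and 0.0645 without replicate 2), while both calls against siNTC held without any single library.

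CYR61, an immediate early gene whose protein supports adhesion and angiogenesis, had 418 and 459 CPM with siNTC. With siTAZ #1 it had 280 and 259 CPM, and with siTAZ #2 it had 379 and 359 CPM. Again the 3 groups did not overlap, but here siTAZ #2 lay between siNTC and siTAZ #1. CYR61 fell 1.63-fold with siTAZ #1 (log2 −0.70, SE 0.09, FDR 0.00525). With siTAZ #2 the log2 fold change was −0.25 (SE 0.09, FDR 0.0841), which did not pass the threshold. The difference between the siRNAs was itself called, with CYR61 1.37-fold lower in siTAZ #1 (log2 −0.45, SE 0.09, FDR 0.0139). Without siNTC replicate 2, the siTAZ #1 value no longer passed (log2 −0.65, FDR 0.0608), and the call between the siRNAs without siTAZ #2 replicate 1 (FDR 0.0758) or 2 (FDR 0.0622). The siTAZ #2 value passed without siTAZ #1 replicate 1 (FDR 0.0248) or 2 (FDR 0.0239) at the same log2 fold change of −0.25, and it was −0.13 with an offset for GC content (FDR 0.274).

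NOV, whose protein was first found as the product of a gene overexpressed in nephroblastoma and binds integrins and NOTCH1, had 51.7 and 45.6 CPM with siNTC. With siTAZ #1 its level was 149 and 171 CPM, and with siTAZ #2 it was 8.97 and 11.7 CPM. The siTAZ #1 libraries were both above siNTC, and the siTAZ #2 libraries were both below it. NOV rose 3.29-fold with siTAZ #1 (log2 1.72, SE 0.16, FDR 0.00235) and fell 4.70-fold with siTAZ #2 (log2 −2.23, SE 0.17, FDR 0.000917). Such an opposite change, higher with siTAZ #1 and lower with siTAZ #2 at FDR under 0.05 in both, was seen for 116 of the 14053 genes (0.825%). The siRNAs differed 15.5-fold in NOV (log2 3.95, SE 0.18, FDR 0.000504), which ranked 26 by size of difference among the genes tested. All 3 NOV calls held when any single library was left out, and the counts behind them ran from 192 to 5576 per library.

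WISP1, first found as a gene induced by Wnt1, had 8.94 and 5.62 CPM with siNTC. Under siTAZ #1 it had 1.68 and 2.82 CPM, and under siTAZ #2 it had 6.54 and 5.38 CPM. The siTAZ #1 libraries lay below the other 4, whereas siTAZ #2 overlapped siNTC. WISP1 fell 3.18-fold with siTAZ #1 (log2 −1.67, SE 0.37, FDR 0.0289) and had −0.29 on the log2 scale under siTAZ #2 (SE 0.36, FDR 0.593). It was 2.60-fold lower with siTAZ #1 than with siTAZ #2 (log2 −1.38, SE 0.37, FDR 0.038). These calls rest on 26 to 141 counts per library. The siTAZ #1 value no longer passed without siNTC replicate 1 (log2 −1.31, FDR 0.146), siNTC replicate 2 (FDR 0.0698), siTAZ #2 replicate 1 (FDR 0.0622) or siTAZ #2 replicate 2 (FDR 0.0606). The call between the siRNAs was lost without the same 4 libraries, with FDR of up to 0.150.

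WISP2 lacks the C-terminal domain that the other CCN proteins carry, and its gene was near the limit of detection, with 11 and 10 counts in the siNTC libraries. It had 5 and 5 counts with siTAZ #1, and 10 and 2 counts with siTAZ #2. As CPM, these are 0.697 and 0.631 with siNTC, 0.323 and 0.153 with siTAZ #1, and 0.467 and 0.121 with siTAZ #2. Both knockdown groups lay below siNTC and overlapped each other. The log2 fold changes were −1.56 with siTAZ #1 (SE 0.82, FDR 0.236) and −1.10 with siTAZ #2 (SE 0.80, FDR 0.350), and no difference was detectable at this depth. WISP3, a member mutated in a skeletal dysplasia of childhood, had 4 and 1 counts with siNTC, 0 and 2 with siTAZ #1 and none in the siTAZ #2 libraries. A count of 0 allows up to 0.0791 CPM over the siTAZ #2 group (3 counts), and no fold change is given.

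**Figure D2:**
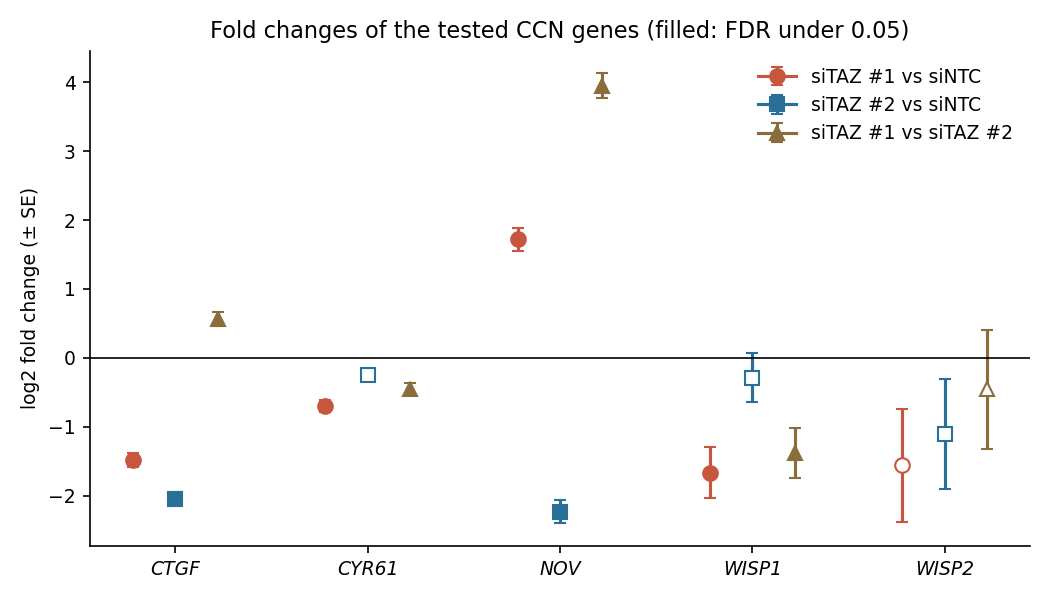
Log2 fold change (points) ± SE (bars) of the 5 tested CCN genes for siTAZ #1 against siNTC, siTAZ #2 against siNTC and siTAZ #1 against siTAZ #2, with filled symbols at an FDR under 0.05. CTGF lies below 0 against siNTC with both siRNAs (−1.48 and −2.04), and NOV lies at 1.72 with siTAZ #1 and −2.23 with siTAZ #2.

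The libraries of each siRNA and siNTC were also compared by overlap alone. All 5 tested members were separated from siNTC with siTAZ #1, against 64.3% of all genes tested, and 4 of 5 were separated with siTAZ #2, against 71.4%. Between the siRNAs 4 of 5 were separated, against 65.6%. With 2 libraries in a group, separation was thus common for any gene.

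Per kilobase of transcript, CTGF was the most abundant member with siNTC, at 538 ± 14.1 CPM per kb (SD, n = 2), followed by CYR61 at 193 ± 12.7 CPM per kb and NOV at 19.7 ± 1.75 CPM per kb. WISP1 was at 1.40 ± 0.453 CPM per kb, and WISP2 at 0.519 ± 0.0366 CPM per kb. With siTAZ #1 the order of the first 3 was kept, at 193 ± 21.9, 118 ± 6.34 and 65.0 ± 6.33 CPM per kb. With siTAZ #2, CYR61 was first, at 162 ± 6.11 CPM per kb, CTGF was at 130 ± 2.72 CPM per kb and NOV was at 4.20 ± 0.787 CPM per kb. WISP1 and WISP2 were the lowest of the 5 tested members in all 3 groups, and WISP3 lay below them, at 0.114 ± 0.0972 CPM per kb with siNTC.

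The ratio of CTGF to CYR61 counts within a library does not depend on how libraries are scaled. It was 3.06 and 2.69 with siNTC. It was 1.74 and 1.60 with siTAZ #1, and 0.793 and 0.862 with siTAZ #2. CTGF thus had more counts than CYR61 in the siNTC and siTAZ #1 libraries and fewer in both siTAZ #2 libraries, and the groups did not overlap. Per length, the mean log2 ratio was 1.48 ± 0.133 (SD, n = 2) with siNTC, 0.70 ± 0.0869 with siTAZ #1 and −0.31 ± 0.0845 with siTAZ #2. The ratio of NOV to CTGF counts was 0.0403 and 0.0369 with siNTC, 0.306 and 0.412 with siTAZ #1 and 0.0299 and 0.0378 with siTAZ #2. It was thus higher with siTAZ #1, while siTAZ #2 overlapped siNTC. These ratios are given as a description, with no test.

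**Figure D3:**
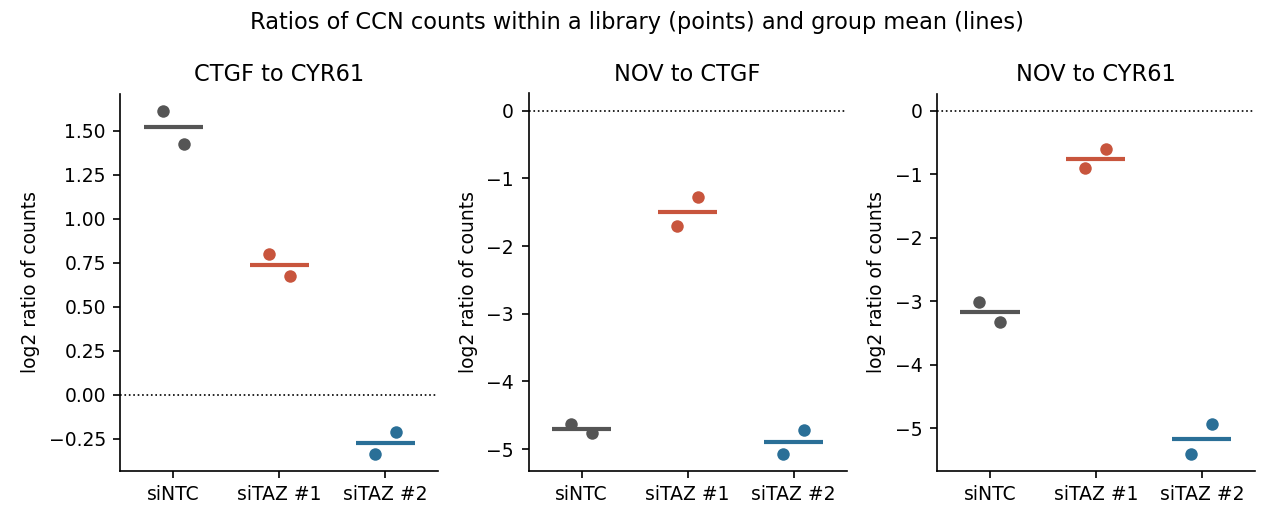
Log2 ratio of counts within each library for CTGF to CYR61, NOV to CTGF and NOV to CYR61, with a point for each of the 2 libraries of a group, a line at the group mean and a dotted line at equal counts. The CTGF to CYR61 ratio is above 0 with siNTC and siTAZ #1 and below 0 with siTAZ #2, and the NOV to CTGF ratio stands highest with siTAZ #1.

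The 6 genes together took 0.174% and 0.171% of all counts with siNTC. They took 0.0909% and 0.0862% with siTAZ #1 and 0.0708% and 0.0691% with siTAZ #2. CTGF made up 72.8% (95% Wilson interval 72.2% to 73.3%) and 70.7% (70.2% to 71.3%) of the CCN counts of the siNTC libraries. Its share was 53.1% and 48.9% with siTAZ #1 and 43.2% and 45.1% with siTAZ #2. CYR61 went from 23.8% and 26.3% with siNTC to 30.5% and 30.6% under siTAZ #1, and its share under siTAZ #2 was 54.5% and 52.4%. The NOV share was 2.93% and 2.61% with siNTC, 16.2% and 20.2% with siTAZ #1 and 1.29% and 1.71% with siTAZ #2. The larger CYR61 share with siTAZ #2 stood beside a lower CTGF level and a CYR61 level that did not pass the test. The intervals cover counting error only.

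**Figure D4:**
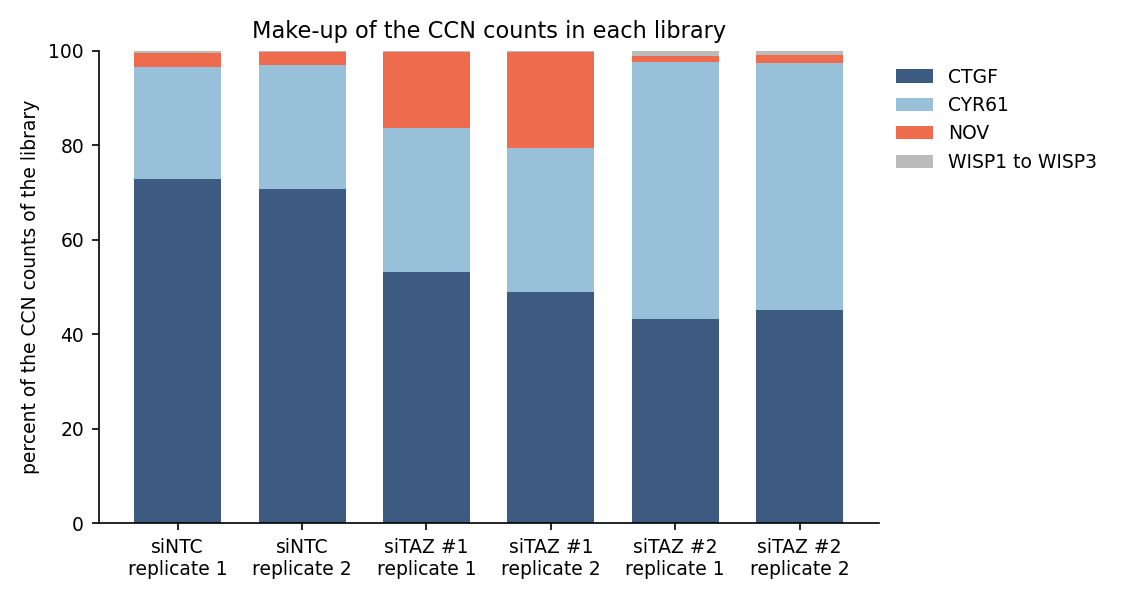
Percent of the CCN counts of each library taken by CTGF, CYR61, NOV and the 3 WISP genes together, as stacked bars for the 2 libraries of each group. CTGF takes 70.7% to 72.8% with siNTC, NOV widens to 16.2% to 20.2% with siTAZ #1, and CYR61 takes over 50% in both siTAZ #2 libraries.

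The regulators of CCN transcription were next examined, as 14 genes for coactivators and transcription factors. With siTAZ #1, 2 were lower and 5 were higher, and with siTAZ #2, 3 were lower and 5 were higher. The lower genes include WWTR1 with each siRNA, which is the target of both and was lower by design. Over all genes tested, 9.78% were called lower and 10.8% higher with siTAZ #1, and 14.4% and 14.1% with siTAZ #2. The median log2 fold changes were 0.02 and −0.09, beside 0.02 and 0.01 over all genes tested. When 1 siNTC or 1 siTAZ #2 library was left out, fewer of the 14 passed with each siRNA, as over all genes tested. With 1 library left out at a time, the list median ran from −0.06 to 0.10 with siTAZ #1 and from −0.13 to 0.004 with siTAZ #2. YAP1, the homolog of TAZ, was at 203 ± 11.0 CPM in siNTC libraries, 316 ± 47.2 CPM in siTAZ #1 libraries (log2 0.64, SE 0.14, FDR 0.0295) and 294 ± 40.2 CPM in siTAZ #2 libraries (SD, n = 2; log2 0.54, SE 0.14, FDR 0.0391). Both YAP1 calls were lost without siNTC replicate 1 (FDR 0.135 and 0.143) or 2 (FDR 0.181 and 0.205), and the siTAZ #2 call also without siTAZ #2 replicate 1 (FDR 0.173) or 2 (FDR 0.0616). SMAD3, which carries TGF-β signals to the CTGF promoter, fell with both siRNAs (log2 −0.65, FDR 0.00543, and −0.41, FDR 0.0166).

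Of the 4 TEAD genes, TEAD1, TEAD2 and TEAD3 differed between the siRNAs. TEAD1 rose with siTAZ #1 (log2 0.60, SE 0.07, FDR 0.00512), with 0.09 for siTAZ #2 (FDR 0.413). TEAD2 rose with siTAZ #2 (log2 0.98, SE 0.15, FDR 0.00698), with −0.09 for siTAZ #1 (FDR 0.714). TEAD3 rose with siTAZ #2 (log2 0.55, SE 0.10, FDR 0.0106; 0.36 with a GC-content offset), with 0.14 for siTAZ #1 (FDR 0.358). The difference between the siRNAs passed the test for TEAD1 (log2 0.51, FDR 0.0056), TEAD2 (log2 −1.07, FDR 0.00525) and TEAD3 (log2 −0.41, FDR 0.026). That of TEAD3 was lost without siNTC replicate 1 (FDR 0.0665), siNTC replicate 2 (FDR 0.0663) or siTAZ #2 replicate 2 (FDR 0.127), and with a GC-content offset (log2 −0.21, FDR 0.111). TEAD4 had a log2 difference of 0.04 between the siRNAs (FDR 0.926). TEAD4 was at 17.8 ± 0.748 CPM with siNTC (SD, n = 2), and its log2 fold changes of −0.51 (FDR 0.176) and −0.54 (FDR 0.133) did not pass. Without siNTC replicate 1 or 2, the SMAD3 calls with both siRNAs, the TEAD1 call with siTAZ #1 and the TEAD2 and TEAD3 calls with siTAZ #2 were lost, with FDR from 0.0576 to 0.104. For SMAD3, the siTAZ #2 call ended as well without siTAZ #2 replicate 1 (FDR 0.0659) or 2 (FDR 0.0923), and the TEAD3 call without siTAZ #2 replicate 2 (FDR 0.0604). TEAD4 passed with siTAZ #1 without siTAZ #1 replicate 2 (FDR 0.0417), and with siTAZ #2 without siTAZ #1 replicate 1 (FDR 0.0359) or 2 (FDR 0.0385).

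Among 15 genes for cell surface receptors of CCN proteins, 12 were tested. With siTAZ #1, 2 were lower and 6 higher, and with siTAZ #2, 1 was lower and 6 higher. The medians were 0.40 and 0.36, against 0.02 and 0.01 over all genes. The shares called lower over all genes were 9.78% and 14.4%, and those called higher were 10.8% and 14.1%. ITGAV and ITGB5, which pair as the αvβ5 integrin that binds CTGF and CYR61, rose with both siRNAs. The log2 fold changes of ITGB5 were 1.31 (FDR 0.000858) and 2.04 (FDR 0.000367), and those of ITGAV were 0.55 (FDR 0.0105) and 1.21 (FDR 0.000866). ITGAV is outside the rule for named genes and was picked with its values already seen, and its siTAZ #1 call was lost without siNTC replicate 1 (FDR 0.0889) or 2 (FDR 0.1003) and with a GC-content offset (log2 0.25, FDR 0.198). ITGB3, another partner of αv, rose with siTAZ #2 (log2 1.86, FDR 0.000681), with 0.29 for siTAZ #1 (FDR 0.131), where it passed without siTAZ #1 replicate 2 (log2 0.42, FDR 0.0185).

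ITGA5, the α chain of the fibronectin receptor, fell with siTAZ #1 (log2 −1.92, FDR 0.000816) and was at 0.01 with siTAZ #2 (FDR 0.964). The syndecans SDC1 and SDC4, heparan sulfate proteoglycans that act as coreceptors, moved in opposite directions. SDC1 rose with siTAZ #1 (log2 0.74, FDR 0.00266) and fell with siTAZ #2 (log2 −0.68, FDR 0.00229). SDC4 fell with siTAZ #1 (log2 −1.12, FDR 0.00104) and rose with siTAZ #2 (log2 0.71, FDR 0.00237). The pattern of SDC1 was found in 0.825% of all genes tested, and the share with that of SDC4 was not counted. When siNTC replicate 1 or 2 was left out, fewer receptor genes passed with each siRNA, as over all genes tested. The receptor median ran from 0.31 to 0.45 with siTAZ #1 and from 0.27 to 0.42 with siTAZ #2, leaving out 1 library at a time. Without siTAZ #1 replicate 1 or 2, more of them passed with siTAZ #2, as over all genes tested.

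CCN proteins also bind growth factors and matrix proteins, and of 8 such genes 2 were lower and 3 higher with each siRNA, beside 9.78% and 10.8% of all genes with siTAZ #1 and 14.4% and 14.1% with siTAZ #2. The medians were 0.11 with siTAZ #1 and 0.30 with siTAZ #2. Fewer of the 8 passed with each siRNA without siNTC replicate 1 or 2, and with siTAZ #2 without either siTAZ #2 library, as over all genes tested. The list median ran from 0.033 to 0.18 with siTAZ #1 and from 0.25 to 0.39 with siTAZ #2, leaving out 1 library at a time. TGFB1, the TGF-β ligand that CTGF can bind, rose with both (log2 0.82, FDR 0.00936, and 2.14, FDR 0.000642). BMP2, a ligand bound by CTGF and CYR61, was at 8.48 ± 1.28 CPM with siNTC, rose to 134.6 ± 6.58 CPM with siTAZ #1 (log2 3.99, FDR 0.000437) and to 13.9 ± 0.244 CPM with siTAZ #2 (log2 0.72, FDR 0.0144). DCN, encoding decorin, a proteoglycan reported to bind CTGF, fell with both (log2 −0.66, FDR 0.0103, and −1.59, FDR 0.000723). Without siNTC replicate 1 or 2, the siTAZ #1 calls of TGFB1 (FDR 0.0621 and 0.0872) and DCN (FDR 0.0804 and 0.0915) were lost. The siTAZ #2 call of BMP2 was lost without siNTC replicate 2 (FDR 0.0813), siTAZ #2 replicate 1 (FDR 0.0678) or siTAZ #2 replicate 2 (FDR 0.066).

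**Figure D5:**
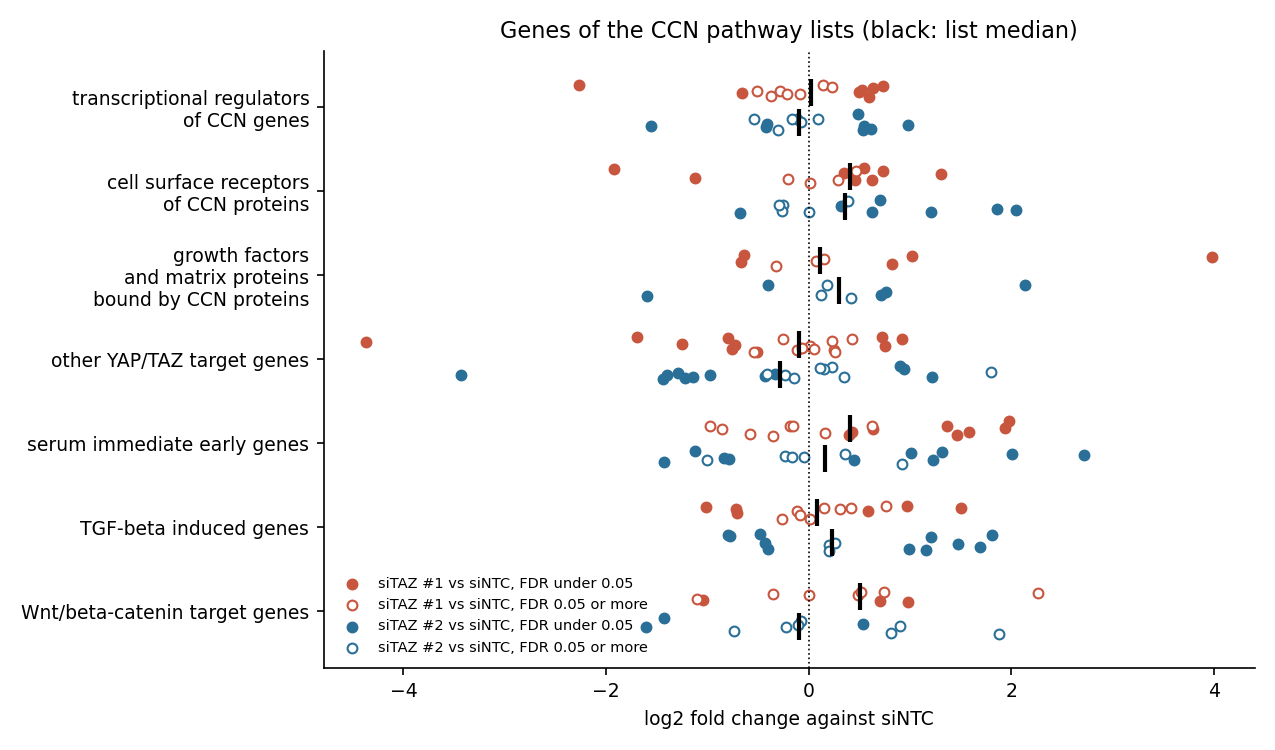
Log2 fold change against siNTC of each tested gene in the 7 lists, for siTAZ #1 and siTAZ #2, with filled points at an FDR under 0.05, open points otherwise and a black bar at the list median. The receptor list has medians of 0.40 and 0.36, and the lists of YAP/TAZ targets and TGF-β induced genes hold calls in both directions.

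Beside CTGF and CYR61, 20 other genes known as YAP/TAZ targets were tested. With siTAZ #1, 7 were lower and 3 higher, and with siTAZ #2, 9 were lower and 3 higher, with medians of −0.09 and −0.28. Fewer of the 20 passed with each siRNA without siNTC replicate 1 or 2, as over all genes tested. Without siTAZ #1 replicate 1, more passed with siTAZ #1, again as over all genes. The list median ran from −0.21 to −0.009 with siTAZ #1 and from −0.38 to −0.19 with siTAZ #2, leaving out 1 library at a time. Genes called lower made up 9.78% of all genes with siTAZ #1 and 14.4% with siTAZ #2, and genes called higher 10.8% and 14.1%. The list holds IGFBP3, CRIM1 and DOCK5, which the study chose on these samples, so its direction is not independent evidence. IGFBP3, which binds insulin-like growth factors, fell with both siRNAs (log2 −4.37, FDR 0.000428, and −3.43, FDR 0.000367), as did the receptor tyrosine kinase AXL (−0.76, FDR 0.0028, and −1.14, FDR 0.000715). MYOF, a membrane repair gene, also fell with both (−0.51, FDR 0.0105, and −1.22, FDR 0.000732). The siTAZ #1 call of MYOF was lost without siNTC replicate 1 (FDR 0.0876) or 2 (FDR 0.094). ANKRD1, another widely used target, had group means of 0.379, 0.269 and 1.33 CPM (siNTC, siTAZ #1, siTAZ #2) and passed with neither siRNA (log2 −0.54, FDR 0.617, and 1.80, FDR 0.0765); it was named after its values were seen.

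CYR61 belongs to the serum immediate early genes, and 16 others of these were tested. With siTAZ #1, 8 were higher and 0 were lower by edgeR's quasi-likelihood test (2 were lower at an unadjusted p under 0.05, 2 by DESeq2 and 0 by the exact test), whereas 4 were lower and 6 higher with siTAZ #2, with medians of 0.41 and 0.16. The corresponding shares of all genes tested were 9.78% lower and 10.8% higher for siTAZ #1, and 14.4% and 14.1% for siTAZ #2. Leaving out siNTC replicate 1 or 2, fewer of the 16 passed with each siRNA, as over all genes tested. With 1 library left out at a time, the list median ran from 0.30 to 0.45 with siTAZ #1 and from −0.03 to 0.20 with siTAZ #2. The growth factor response genes EGR1 (log2 1.36, FDR 0.00242, and 1.23, FDR 0.00225) and IER3 (1.47, FDR 0.000904, and 1.31, FDR 0.000811) rose with both siRNAs. EGR2 rose with both as well (1.94, FDR 0.00746, and 2.72, FDR 0.00207), and its siTAZ #1 call was lost without siNTC replicate 1 (FDR 0.0621). CYR61 fell with siTAZ #1 while these genes rose. FOSL1, an AP-1 subunit, was higher with siTAZ #1 (log2 0.40, FDR 0.0475), a call that was lost in 12 of 18 alternatives, among them leaving out any 1 library other than siTAZ #1 replicate 1 (FDR 0.0539 to 0.249), and it fell with siTAZ #2 (log2 −0.83, FDR 0.00381).

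Of the TGF-β induced genes, a class to which CTGF belongs, 14 were tested. With siTAZ #1, 3 were lower and 3 higher, and with siTAZ #2, 5 were lower and 6 higher, with medians of 0.09 and 0.23. The shares of all genes called lower and higher were 9.78% and 10.8% with siTAZ #1, and 14.4% and 14.1% with siTAZ #2. This list holds COL1A2, which the study chose on these samples as lower with both siRNAs. More of the 14 passed with siTAZ #1 without siTAZ #1 replicate 1 or 2. Fewer passed with each siRNA without siNTC replicate 1 or 2, and with siTAZ #2 without either siTAZ #2 library. The same was seen over all genes tested. The list median ran from −0.01 to 0.15 with siTAZ #1 and from 0.17 to 0.27 with siTAZ #2, leaving out 1 library at a time. PMEPA1, a feedback inhibitor of TGF-β signaling, rose with both (log2 1.51, FDR 0.00258, and 1.69, FDR 0.00129). LTBP2, which is secreted with elastic fibers, rose with siTAZ #2 (1.20, FDR 0.00102), with 0.31 for siTAZ #1 (FDR 0.0715), where it passed without siTAZ #1 replicate 1 (FDR 0.043) or 2 (FDR 0.0261). SKIL, a SMAD corepressor, rose with siTAZ #2 (1.48, FDR 0.00229), with 0.41 for siTAZ #1 (FDR 0.118), which passed without siTAZ #1 replicate 1 (log2 0.59, FDR 0.00378).

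In 3 of these TGF-β induced genes the siRNAs moved the level in opposite directions. Over all genes tested, 0.825% were called higher with siTAZ #1 and lower with siTAZ #2, the pattern of POSTN and ACTA2. The share with the reverse pattern, that of ELN, was not counted. ELN, encoding elastin, fell with siTAZ #1 (log2 −0.71, FDR 0.0166) and rose with siTAZ #2 (1.16, FDR 0.00268). POSTN, encoding the matricellular protein periostin, rose with siTAZ #1 (0.97, FDR 0.00237) and fell with siTAZ #2 (−0.48, FDR 0.0137). ACTA2, encoding α-smooth muscle actin, rose with siTAZ #1 (0.59, FDR 0.0131) and fell with siTAZ #2 (−0.80, FDR 0.00381). The siTAZ #1 calls of ELN (FDR 0.0889 and 0.108) and ACTA2 (FDR 0.117 and 0.0922) were lost without siNTC replicate 1 or 2, and the siTAZ #2 call of POSTN without siNTC replicate 1 (FDR 0.0893), siNTC replicate 2 (FDR 0.0827), siTAZ #2 replicate 1 (FDR 0.0832) or siTAZ #2 replicate 2 (FDR 0.0551).

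The WISP genes take their name from Wnt1-inducible signaling, and of 13 Wnt/β-catenin target genes 10 were tested. With siTAZ #1, 1 was lower and 2 were higher, and with siTAZ #2, 2 were lower and 1 was higher, with medians of 0.51 and −0.09. For 10 genes, these counts lie near the shares of all genes called lower and higher, which were 9.78% and 10.8% with siTAZ #1 and 14.4% and 14.1% with siTAZ #2. In fits without siNTC replicate 1 or 2, fewer of the 10 passed with each siRNA, as over all genes tested. With 1 library left out at a time, the list median ran from 0.44 to 0.55 with siTAZ #1 and from −0.30 to 0.39 with siTAZ #2. DKK1, a secreted Wnt inhibitor, fell with both (log2 −1.04, FDR 0.0179, and −1.61, FDR 0.00355). MYC fell with siTAZ #2 (−1.43, FDR 0.00397), with −0.35 for siTAZ #1 (FDR 0.224). CCND1, encoding cyclin D1, rose with both (0.71, FDR 0.00498, and 0.54, FDR 0.00783). Without siNTC replicate 1 or 2, the siTAZ #1 calls of DKK1 (FDR 0.11 and 0.105) and CCND1 (FDR 0.0662 and 0.0692) and the siTAZ #2 call of CCND1 (FDR 0.0776 and 0.0849) were lost, the last also without siTAZ #2 replicate 2 (FDR 0.059).

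The genes whose levels followed the members most closely were listed by the Pearson correlation of log2 CPM over the 6 libraries, as a description. For CTGF they were SUCLG1 (r = 0.996), C20orf194, PAK1, TMBIM6 and PPAP2B. PPAP2B had group means of 348 CPM (siNTC), 51.5 CPM (siTAZ #1) and 29.2 CPM (siTAZ #2), and showed the largest change of these 5. For CYR61 they were MB21D2 (r = 0.997), FOSL2, NEAT1, SUCLG2 and GTF2H5, each lowest with siTAZ #1. For NOV, a list added after its values were seen, they were CXCL1 (r = 0.998), LAMC1, STOM, LRRC8C and PPARG. CXCL1, a neutrophil chemokine, had means of 14.3 CPM (siNTC), 55.5 CPM (siTAZ #1) and 3.37 CPM (siTAZ #2). The 6 libraries form 3 groups of 2, so that these correlations mostly restate the order of the group means.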

How the data were processed

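RNA from 2 libraries per group was sequenced on an Ion Proton. Reads were mapped to hg19 by the authors using TMAP, and the deposited values are unnormalized read counts per gene from HTSeq 0.6.1. Of 23368 entries, 13 carrying a date in place of a symbol were left out (0.0458% to 0.0506% of counts). Genes were filtered with filterByExpr, scaled by TMM and compared by the quasi-likelihood method in edgeR 4.0.16 (R 4.3.3), in 1 fit of all 6 libraries, with Benjamini-Hochberg adjustment over 14053 genes (FDR under 0.05). Standard errors were derived from the fold change and its F statistic. Levels are CPM, divided by MANE transcript length for comparison between genes. The script was tested on simulated data. Named genes were the 6 members, WWTR1, YAP1 and TEAD1 to TEAD4, the 3 members of each list with the lowest FDR, and those called in opposite directions. Genes called like a member by correlation had a mean of at least 10 CPM and group means that ranged over at least 1 log2 unit. Members and lists were chosen with earlier results of these data known. The alternatives were DESeq2 1.42.0, the exact test, other scalings and filters, a fit of 4 libraries, a replicate block and leaving out each library. A fit without the near-missing region of siTAZ #1 replicate 2 was planned with earlier results known. A GC-content offset and the newer edgeR quasi-likelihood method were chosen after seeing the data. In the main fit, replicate numbers were not used to pair the libraries. The labels do not describe how separate the replicate cultures were, so p-values measure the spread between these libraries.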

Additional observations from a re-analysis of the deposited data

Results flagged for a closer look

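In 4 CCN genes the effects of the siRNAs, each measured against the same siNTC libraries, differed by the test of siTAZ #1 against siTAZ #2. NOV differed most, with a log2 difference of 3.95 (FDR 0.000504) and opposite directions against siNTC, and both siTAZ #1 libraries lay above both siTAZ #2 libraries. WISP1 differed by −1.38 (FDR 0.038), CTGF by 0.56 (FDR 0.0102) and CYR61 by −0.45 (FDR 0.0139), and in each the libraries of the siRNAs did not overlap. Differences between the siRNAs at this threshold were found in 28.6% of all genes tested, and non-overlapping libraries of the siRNAs in 65.6%. In the exact test, the differences of CTGF (FDR 0.268) and CYR61 (FDR 0.396) did not pass. That of WISP1 did not pass in the fit of 4 libraries (FDR 0.0574) or with the replicate block (FDR 0.0809).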

How the results depend on the processing

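CTGF and NOV against siNTC, with either siRNA, and NOV between the siRNAs kept their direction and stayed under the FDR threshold in all 18 alternatives run. The exact test on 4 libraries called 1041 genes with siTAZ #1, 6414 with siTAZ #2 and 1488 between the siRNAs, where it called 2 members. Under it the log2 values that no longer passed were CYR61 with siTAZ #1 (−0.72, FDR 0.121) and, between the siRNAs, CTGF (0.56, FDR 0.268) and CYR61 (−0.45, FDR 0.396). Of the other genes named in the text, it ended 14 of 25 calls with siTAZ #1 (FDR 0.0812 to 0.56), among them YAP1, TEAD1, SMAD3, ITGAV, SDC1, TGFB1, DCN, AXL, ELN and ACTA2. It ended 0 of 29 with siTAZ #2 and 9 of 23 between the siRNAs, among them WWTR1 (FDR 0.24), TEAD1 (FDR 0.303) and TEAD3 (FDR 0.443). CYR61 with siTAZ #2 passed under DESeq2 (−0.26, FDR 0.0449), the exact test (−0.25, FDR 0.0213) and a fit of 4 libraries (−0.25, FDR 0.022). It did not pass with library totals (−0.20, FDR 0.121), the replicate block (−0.25, FDR 0.151) or a GC-content offset (−0.13, FDR 0.274). Nor did it pass with the other scalings, the other count filters, the newer edgeR method or without the near-missing region (FDR 0.0751 to 0.0886). The fit without the near-missing region called 4008 genes with siTAZ #1, 5129 with siTAZ #2 and 5051 between the siRNAs. The main fit called 2889, 4004 and 4020. The members called stayed at 4, 2 and 4. With siTAZ #1 the FDR in it was 0.000169 for CYR61 and 0.00294 for WISP1. Between the siRNAs it was 0.00146 for CTGF, 0.00291 for CYR61 and 0.00697 for WISP1. The fit of 4 libraries called 6099 genes with siTAZ #2, and WISP1 did not pass in it with siTAZ #1 (−1.69, FDR 0.0602) or between the siRNAs (−1.39, FDR 0.0574). The cause of these differences was not tested.

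The replicate block called 1691 genes with siTAZ #1, 2749 with siTAZ #2 and 2869 between the siRNAs, and WISP1 did not pass in it with siTAZ #1 (−1.65, FDR 0.0714) or between the siRNAs (−1.36, FDR 0.0809). It changed no other call of a member, and of the other named genes it ended both YAP1 calls (FDR 0.0714 with siTAZ #1 and 0.0817 with siTAZ #2), the FOSL1 call with siTAZ #1 (FDR 0.0515) and the TEAD3 call between the siRNAs (FDR 0.0611). Libraries with the same number did not deviate together over all genes tested (correlations of −0.001, 0.011 and −0.077). These correlations include the near-missing genes of siTAZ #1 replicate 2. They cannot show whether libraries with the same number were handled together.

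Leaving out 1 library at a time, the genes called ran from 565 to 5105 with siTAZ #1, from 1358 to 6065 with siTAZ #2 and from 1818 to 5688 between the siRNAs, and the members called from 2 to 4, 2 to 3 and 1 to 4. The log2 ranges with siTAZ #1 were −1.60 to −1.37 for CTGF, −0.78 to −0.65 for CYR61, 1.62 to 1.81 for NOV, −2.11 to −1.31 for WISP1 and −2.07 to −1.03 for WISP2. With siTAZ #2 they were −2.09 to −2.02 for CTGF, −0.33 to −0.20 for CYR61, −2.45 to −2.05 for NOV, −0.60 to 0.071 for WISP1 and −2.40 to −0.52 for WISP2. Between the siRNAs they were 0.44 to 0.67 for CTGF, −0.51 to −0.40 for CYR61, 3.77 to 4.16 for NOV, −1.83 to −1.08 for WISP1 and −1.05 to 0.84 for WISP2. The sign of WISP1 with siTAZ #2 turned without siNTC replicate 1 (0.071), and that of WISP2 between the siRNAs without siTAZ #1 replicate 2 (0.071) or siTAZ #2 replicate 1 (0.84). WISP3 was tested only with no filter on low counts, and WISP2 gave no value at a mean count of at least 50. With 2 libraries per group, WISP2 and WISP3 were limited by depth.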
